A study of Arabidopsis thaliana with 8 samples.

Results

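The data describe the response of wild-type Arabidopsis thaliana seeds to salt during imbibition. They were chosen by their labels: 4 of the 8 samples of the series come from the wild-type ecotype Col-0, 2 from seeds imbibed with 200 mM NaCl and 2 from seeds imbibed without treatment. Both groups are labelled wildtype, were surface-sterilised with ethanol, kept in liquid Murashige and Skoog medium and sampled after 24 h as whole imbibed seeds. The other 4 libraries come from serk1-1 seeds under the same 2 media, and their titles also contain the words wild type, so the genotype label was followed. Total RNA was sequenced from both ends of the fragments on an Illumina instrument. The number of seeds pooled in a sample is not given in the sources used here.

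An imbibed seed takes up water, resumes metabolism and prepares to push the root through the seed coat and endosperm. Salt lowers the water available to the seed and brings sodium into it, and abscisic acid (ABA), the hormone that keeps seeds from germinating, works through receptors, PP2C phosphatases, SnRK2 kinases and transcription factors such as ABI5. Genes of the late seed programme, among them those of late embryogenesis abundant (LEA) proteins and storage proteins, are known targets of this pathway, while cell wall loosening accompanies germination.

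The values are FPKM, fragment values scaled by gene length and by each library's mapped total, for 33279 genes. Sequencing depth is unknown, since FPKM hold no read counts. Totals of FPKM were 821076 and 821247 in the NaCl libraries and 777936 and 797006 in the control libraries. Seed markers were present in all 4 libraries, at summed levels of 6643 and 15663 FPKM with NaCl and of 4497 and 8889 FPKM in control, over 6 genes. Of the seed coat markers, 2 of 4 were at 0 in all 4 libraries, as were 4 of 5 root hair markers and 4 of 8 pollen and flower markers. The remaining pollen and flower markers summed to 14.2 and 15.6 FPKM with NaCl and 4.40 and 9.51 FPKM in control, and their part in the results was not tested. Markers of the green seedling summed to 74.6 and 82.7 FPKM with NaCl and 77.1 and 62.3 FPKM in control, and those of the endosperm to 256 and 237 FPKM with NaCl and 213 and 178 FPKM in control. Of the 4 green seedling markers, 3 were below 1 FPKM in all 4 libraries, and the sum came from RBCS1A. Of the 4 endosperm markers, 2 were below 1 FPKM in all 4 libraries. EPR1 held most of the endosperm sum, at 250 and 232 FPKM with NaCl and 212 and 177 FPKM in control. Ribosomal DNA loci took 2.44% and 5.85% of the total with NaCl and 2.54% and 4.02% in control, so the second library of each group held the larger share.

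The first question was which genes differed between salted and unsalted Col-0 seeds. Of the 14255 genes with at least 1 FPKM in both libraries of either Col-0 group, 7 passed limma's moderated test at a Benjamini-Hochberg adjusted p under 0.05 (0.0491%), with 5 higher with NaCl (0.0351%) and 2 lower (0.014%). At an unadjusted p under 0.05 there were 1745 genes. With the replicate number added as a block, 1207 genes were called (8.47%), of which 851 were higher with NaCl (5.97%) and 356 were lower (2.5%), and all 7 genes of the unpaired fit were among them. The median log2 fold change, on the scale of log2(FPKM + 1), was 1.03 for the higher genes and -0.89 for the lower genes, beside 0.04 for all genes tested. Among the higher genes, 450 changed by at least 1 log2 unit, and 134 of the lower genes did. Of the higher genes, 104 reached the filter on low values only through the NaCl group, and 52 of the lower genes only through the control group, so the filter fixed their direction. The genes that passed through both groups gave 747 higher and 304 lower calls, together 7.89% of such genes. Shares of called genes in a list are read against 5.97% higher and 2.5% lower over all genes tested.

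The labels call the libraries biological replicates and number them but do not say what a number marks. Each p-value measures the spread between these libraries. Differences between replicate 2 and replicate 1 went together across genes in the 2 Col-0 groups (r = 0.73, a description over genes). Between a Col-0 and a serk1-1 group r was lower, from 0.428 to 0.465. The block is a replicate term shared by all 8 libraries, so it removes only the replicate difference common to both genotypes. A replicate difference particular to Col-0 stays in the spread. The median standard error was 0.18 with the block and 0.29 without it. The paired calls also rest on single libraries: without control replicate 1 the paired fit called 0 genes, without control replicate 2 it called 212, without NaCl replicate 1 it called 68 and without NaCl replicate 2 it called 950. No gene named as called held without control replicate 1, and the counts of all gene lists were then 0. Where a list had 1 or 2 called genes in a direction, leaving out another Col-0 library gave 0 to 4. Without a serk1-1 library, which enters only the estimate of the spread, the paired calls numbered 776 to 986 and the unpaired fit called 0. Without 1 Col-0 library the unpaired fit called 37 genes where NaCl replicate 2 was left out and 0 in the other cases. Of the 1207 paired calls, 80 had Col-0 groups that overlapped in FPKM. Both replicate pairs moved in the called direction for all 1207. The test itself favours this, since pairs that disagree shrink the mean difference and raise the standard error. Under quantile normalization, 56% of the paired calls were higher with NaCl, against 70.5% on the values as deposited. Hereafter, "called" means an adjusted p under 0.05 in the paired fit unless the unpaired fit is named, and each fold change is a log2 difference of the group means (n = 2 libraries a group) followed by its standard error.

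**Figure D1:**
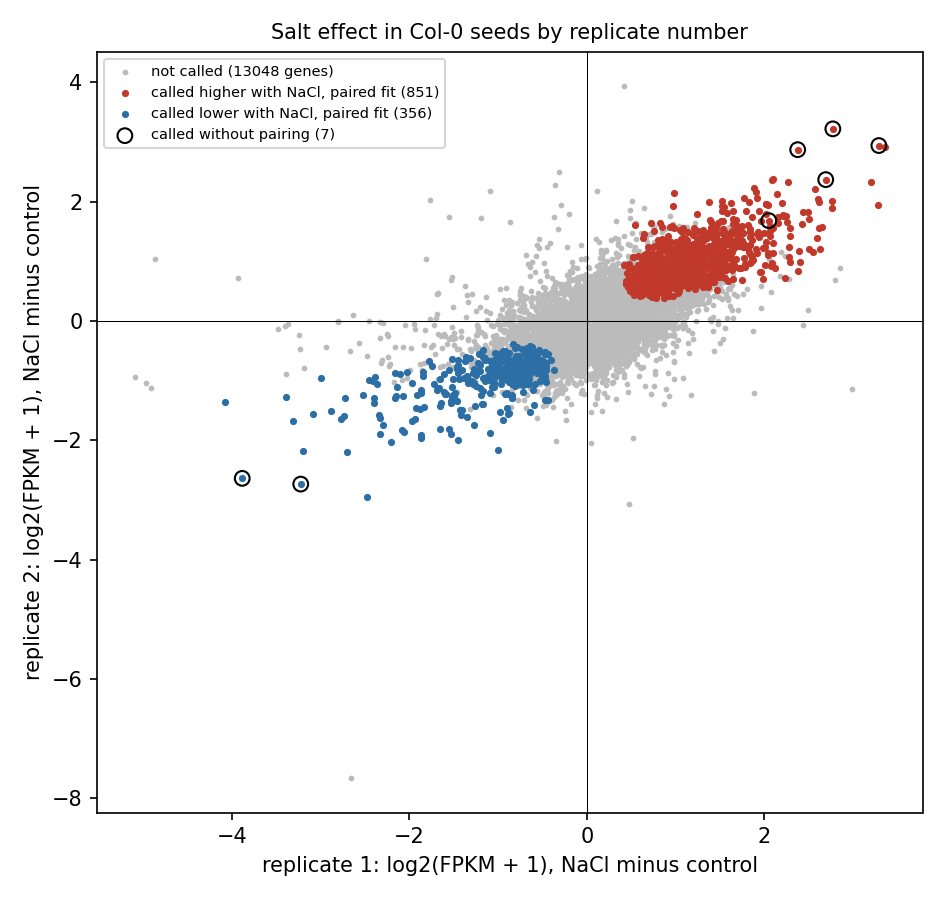
Each point is 1 of 14255 genes, placed by its difference NaCl minus control in log2(FPKM + 1) in replicate 1 (x axis) and replicate 2 (y axis), with the 851 higher and 356 lower genes of the paired fit in colour and the 7 genes of the unpaired fit ringed. The coloured genes lie in the quadrants where both replicates moved the same way, which the test itself favours.

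The 7 genes called without pairing included genes known from phosphate and sugar starvation. PAP17, a purple acid phosphatase whose transcript marks phosphate starvation, had 6.11 and 10.1 FPKM with NaCl and 104 and 68.1 FPKM in control. Both NaCl libraries lay below both control libraries, and PAP17 fell by 3.26 on the log2 scale (SE 0.34, adjusted p = 0.0422 unpaired). G3PP1, annotated as a putative glycerol-3-phosphate transporter and also known from phosphate starvation, had 2.08 and 2.69 FPKM with NaCl and 27.7 and 23.55 FPKM in control, a fold change of -2.98 ± 0.26 (adjusted p = 0.0313 unpaired). ASN1, a glutamine-dependent asparagine synthetase that is induced in the dark and by low sugar, stood at 36.8 and 27.2 FPKM with NaCl and 4.85 and 4.46 FPKM in control. Its groups were far apart, and ASN1 rose with a fold change of 2.53 ± 0.27 (adjusted p = 0.0422 unpaired).

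AT3G15450, annotated as an aluminum induced protein with YGL and LRDR motifs, was at 171 and 161 FPKM with NaCl and 24.2 and 16.4 FPKM in control. The 2 libraries of each group lay close together, and the fold change of AT3G15450 was 3.0 ± 0.27 (adjusted p = 0.0313 unpaired). GLYI7, annotated as a lactoylglutathione lyase or glyoxalase I family protein, reached 40.2 and 34.8 FPKM with NaCl, against 8.96 and 10.2 FPKM in control. The fold change of GLYI7 was 1.87 ± 0.18 (adjusted p = 0.0422 unpaired). The remaining genes of the unpaired fit, AT4G30097 and AT5G35688, were listed at 0 in both control libraries and passed the filter only through NaCl. AT4G30097, an uncharacterized protein gene, had 8.78 and 6.68 FPKM with NaCl, and AT5G35688, annotated as zinc metalloproteinase-like, had 4.19 and 6.32 FPKM with NaCl. No fold is given against a group at 0. In serk1-1, AT5G35688 was at 0 in every library. AT4G30097 had 8.41 and 6.22 FPKM with NaCl in serk1-1 and was at 0 in both controls. A group at 0 in both libraries adds nothing to the shared spread, which favours the calls of both genes. In the reference annotation AT4G30097 lies wholly inside AT4G30100 on the opposite strand. AT5G35688 overlaps AT5G35690 on the same strand, where strand would not tell the reads apart. PAP17, ASN1, AT3G15450 and GLYI7 each overlap a gene on the opposite strand, though none of them lies wholly inside it. The strand setting is not given in the sources used here, and AT4G30100 itself had 22.7 and 13.0 FPKM with NaCl and 16.2 and 10.1 FPKM in control.

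Beyond these, the 15 genes of largest fold change in each direction were taken from the paired calls that averaged 5 FPKM or more in a Col-0 group and whose groups did not overlap. The higher genes included NIT2, POP2 and NRT1.8. NIT2, a nitrilase, had 66.3 and 27.6 FPKM with NaCl and 10.3 and 5.19 FPKM in control, a fold change of 2.39 ± 0.21 (adjusted p = 0.00562). POP2, the transaminase that degrades the amino acid GABA, had 36.3 and 11.5 FPKM with NaCl and 4.51 and 2.1 FPKM in control, a fold change of 2.39 ± 0.27 (adjusted p = 0.00726). NRT1.8, a nitrate transporter that unloads nitrate from the xylem, had 24.0 and 12.1 FPKM with NaCl and 3.1 and 2.16 FPKM in control, a fold change of 2.33 ± 0.21 (adjusted p = 0.00562). In NIT2 and POP2, NaCl replicate 1 was well above NaCl replicate 2. That no NaCl library fell to the level of a control library was required by the selection. PUP10, a purine permease, spread still more, with 28.5 and 6.85 FPKM with NaCl and 4.48 and 1.2 FPKM in control.

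BT2, a protein with BTB and TAZ domains, rose by 2.3 log2 units, with 12.1 and 20.3 FPKM with NaCl and 1.71 and 3.24 FPKM in control (SE 0.18, adjusted p = 0.00527). The highest fold change of all, 3.14 ± 0.38, belonged to AT5G49448, a locus without an annotated product, at 78.9 and 21.0 FPKM with NaCl and 6.79 and 1.91 FPKM in control. AT2G43018, also without an annotated product, had 18.4 and 8.63 FPKM with NaCl and 1.86 and 1.6 FPKM in control. The other genes of this side were AT5G39080 (an HXXXD-type acyl-transferase), AT5G44060, AT1G08170 (histone superfamily), AT4G18650 (transcription factor-like), AT3G19615 and AT4G33930 (cupredoxin superfamily), with log2 fold changes from 2.13 for AT4G33930 to 2.61 for AT5G39080. AT5G39080, AT5G44060 and AT3G19615 passed the filter only through NaCl. AT3G19615 lies inside another annotated gene on the opposite strand, so its reads may not be its own.

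On the lower side, 3 genes act on cell walls or growth. XTH5, a xyloglucan endotransglucosylase, had 32.3 and 19.3 FPKM with NaCl and 166 and 74.9 FPKM in control, and fell by 2.11 log2 units (SE 0.15, adjusted p = 0.00519). AT3G05910, annotated as an esterase of pectin, had 6.64 and 1.78 FPKM with NaCl and 36.5 and 8.3 FPKM in control, a fold change of -2.02 ± 0.23 (adjusted p = 0.00793). HAT2, an auxin-inducible homeobox-leucine zipper factor, had 1.58 and 0.51 FPKM with NaCl and 16.2 and 3.57 FPKM in control, a fold change of -2.17 ± 0.27 (adjusted p = 0.00932). For AT3G05910 and HAT2 replicate 1 was the higher library in both media, so the 2 pairs fell from different levels. HAT2 passed the filter only through the control group, where it is high.

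The auxin genes GH3.5 and AT4G34800 also fell. GH3.5, an enzyme that couples auxin to amino acids, had 15.4 and 14.6 FPKM with NaCl and 74.6 and 62.7 FPKM in control, a fold change of -2.12 ± 0.25 (adjusted p = 0.00827). AT4G34800, of the SAUR-like auxin-responsive family, had 6.95 and 5.88 FPKM with NaCl and 53.3 and 20.4 FPKM in control, a fold change of -2.21 ± 0.45 (adjusted p = 0.0339). Both NaCl libraries were below both control libraries in each case, as the selection required.

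Other genes of the lower side were DIN10 (raffinose synthase family), AT3G22100 (a bHLH factor), AT1G61260, AT1G66180 (an aspartyl protease), DGR1, AT4G31020, AT3G22121 and SBH2 (a sphingoid base hydroxylase). DIN10 had 4.31 and 3.09 FPKM with NaCl and 33.6 and 17.7 FPKM in control, a fold change of -2.45 ± 0.26 (adjusted p = 0.00691). AT3G22100 had 10.3 and 7.51 FPKM with NaCl and 62.1 and 65.0 FPKM in control, a fold change of -2.72 ± 0.40 (adjusted p = 0.0143). In AT1G61260, DGR1 and SBH2 NaCl replicate 2 was several times the level of NaCl replicate 1. That it stayed under the controls was required by the selection. AT3G22121, a non-coding RNA with 81.3 and 128 FPKM with NaCl and 606 and 366 FPKM in control, lies inside AT3G22120 (CWLP, a cell wall linker protein) on the opposite strand, and the reads of the pair cannot be told apart without strand. AT3G22120 itself was also called lower, with 72.7 and 92.9 FPKM with NaCl and 390.5 and 188 FPKM in control. Of the 92 named genes that were called, 22 overlap another annotated gene.

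**Figure D2:**
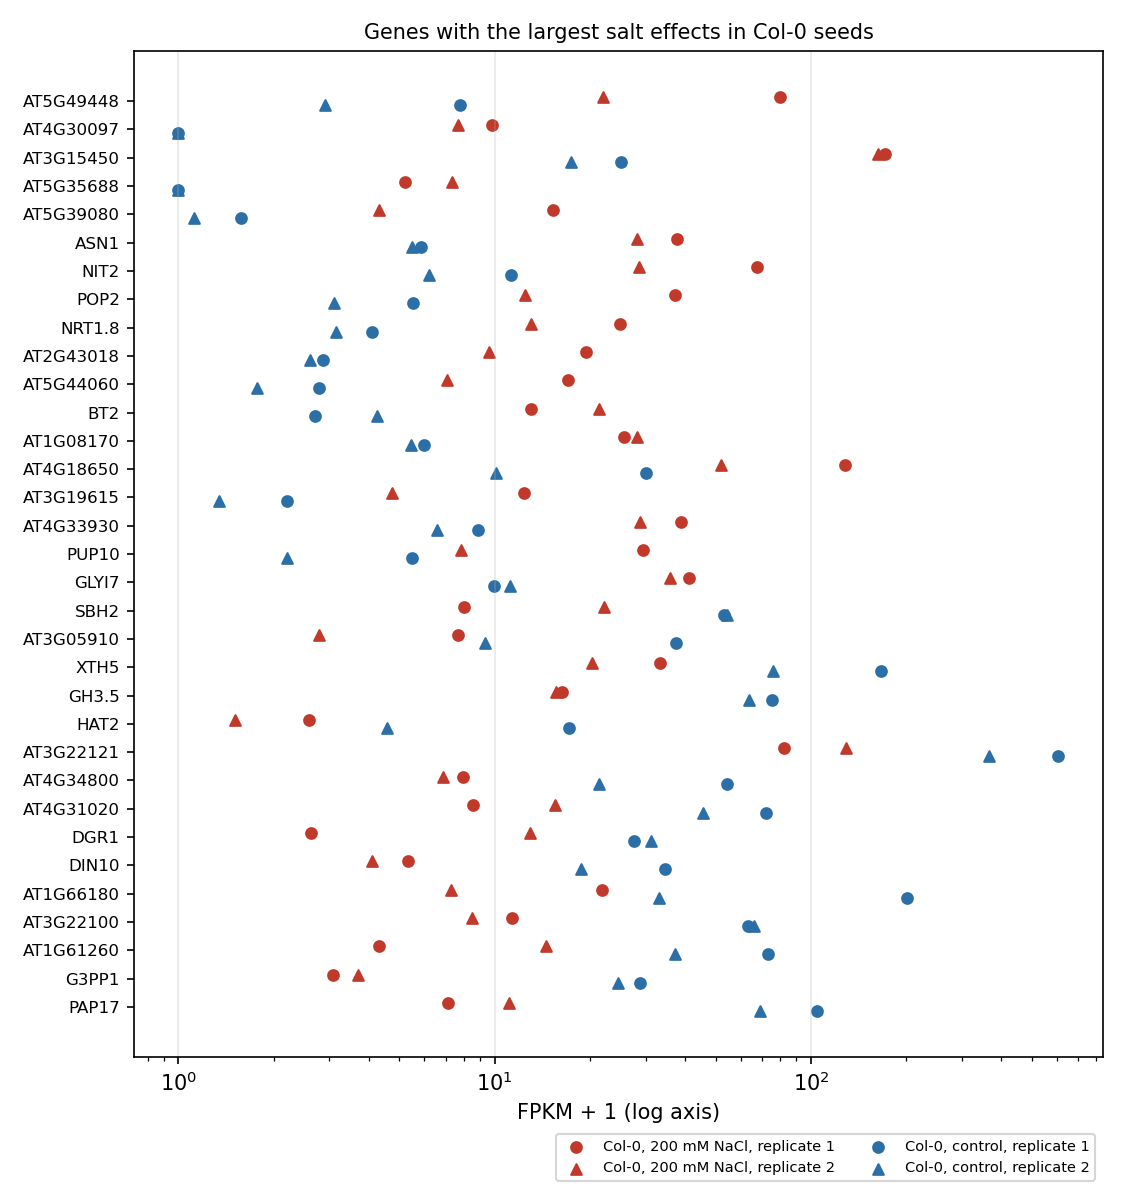
FPKM plus 1 on a log axis in each Col-0 library for the 7 genes called without pairing and the 15 genes of largest fold change in each direction, ordered by fold change, with NaCl in red and control in blue, circles for replicate 1 and triangles for replicate 2. In every row the red symbols lie to one side of the blue ones, which the choice of the 15 genes in each direction required. PAP17, in the bottom row, had 6.11 and 10.1 FPKM with NaCl and 104 and 68.1 FPKM in control.

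Genes of LEA proteins, hydrophilic proteins that protect drying seeds, were the list with the highest share of called genes. Of 25 LEA genes tested, of 26 listed, 19 rose and 1 fell, and 5 were not called, with a median log2 fold change of 1.18 beside 0.04 over all genes. No LEA gene was called without pairing. LTI30, a dehydrin, had 259 and 152 FPKM with NaCl and 44.9 and 45.8 FPKM in control and rose by 2.1 log2 units (SE 0.32, adjusted p = 0.0163). LEA76 had 709.8 and 661 FPKM with NaCl and 169 and 219.7 FPKM in control, a fold change of 1.82 ± 0.24 (adjusted p = 0.0107). ECP31, annotated as a seed maturation protein, had 442 and 573 FPKM with NaCl and 91.9 and 180.2 FPKM in control, a fold change of 1.96 ± 0.24 (adjusted p = 0.00899). In all 3 the groups did not overlap, as in 21 of the 25 genes on the higher side; over all genes tested, 20.6% did not overlap on that side. In whole seeds, a change in the number of cells and a change in RNA per cell cannot be told apart.

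Neighbouring AT3G22490, another seed maturation protein, was lower in level, at 43.2 and 27.2 FPKM with NaCl and 8.3 and 7.3 FPKM in control, and rose by 2.01 log2 units (SE 0.17, adjusted p = 0.00562). The Em genes EM1 and EM6, known targets of ABI5, both rose. EM1 had 430.3 and 286 FPKM with NaCl and 136 and 118 FPKM in control, a fold change of 1.46 ± 0.25 (adjusted p = 0.0213). EM6 had 1518 and 2275 FPKM with NaCl and 756 and 1166 FPKM in control, a fold change of 0.98 ± 0.18 (adjusted p = 0.0258). RAB18, the most abundant dehydrin, had 3437 and 5520.4 FPKM with NaCl and 1362 and 2684 FPKM in control. Its groups did not overlap, and RAB18 missed the threshold with a fold change of 1.19 ± 0.29 (adjusted p = 0.0511). SAG21, a LEA-type protein named for senescence, was the member that fell, with 217 and 171 FPKM with NaCl and 407 and 313 FPKM in control (fold change -0.88 ± 0.18, adjusted p = 0.0346). Together the LEA genes held 2.15% and 2% of the summed FPKM with NaCl and 1.02% and 1.09% in control. Without control replicate 1, 0 LEA genes were called higher; without control replicate 2, NaCl replicate 1 and NaCl replicate 2 the counts were 7, 1 and 15, and the list median stayed between 0.95 and 1.1 on the log2 scale. The count of higher LEA genes was 6 without a filter on low values.

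**Figure D3:**
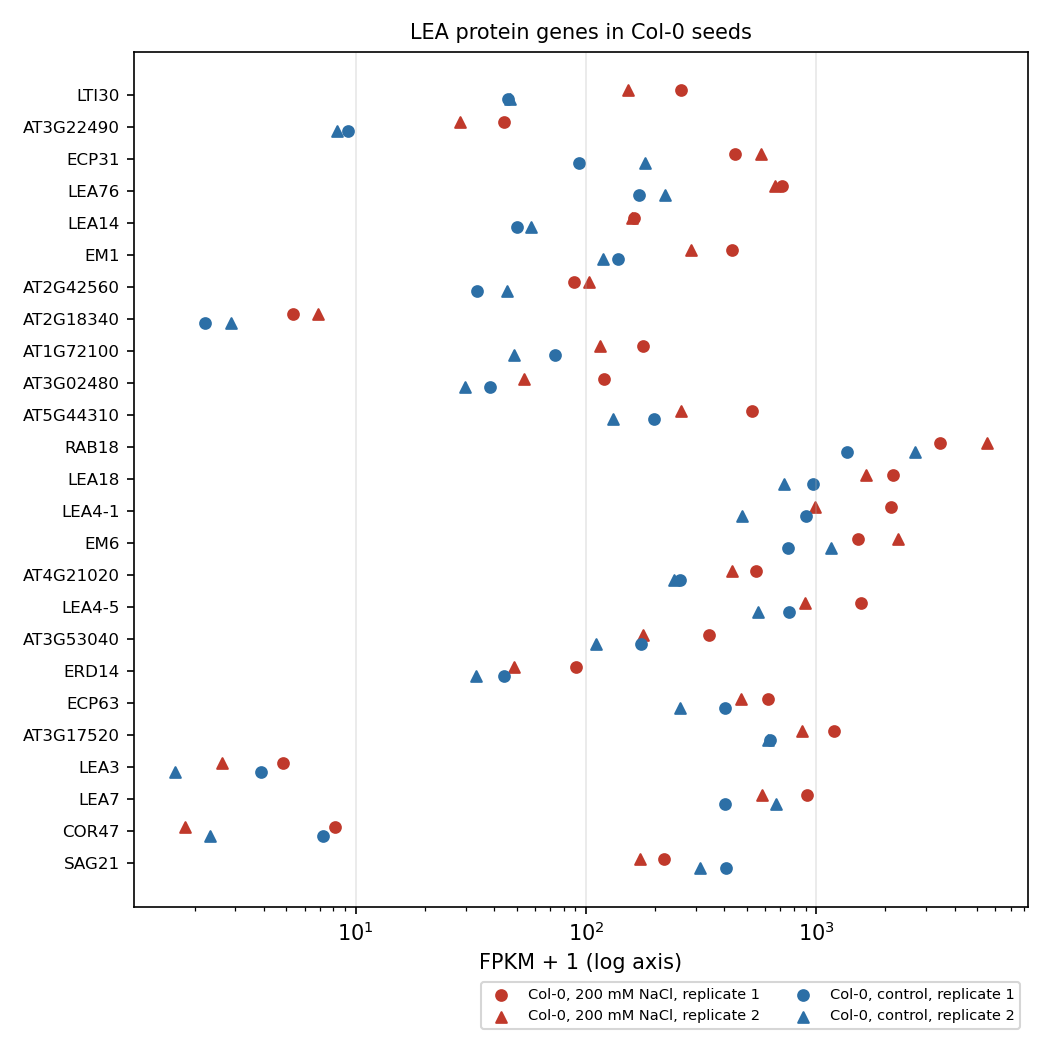
FPKM plus 1 on a log axis in each Col-0 library for the 25 LEA genes tested, ordered by fold change, with NaCl in red and control in blue. RAB18 lies farthest right, at 3437 and 5520.4 FPKM with NaCl and 1362 and 2684 FPKM in control, and SAG21 in the last row is the member called lower.

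The upstream sequences of these genes were read because ABI5 and related factors bind a DNA element, the ABA-responsive element, with the core ACGTG. In the 500 bases before the annotated gene start in the RefSeq annotation of TAIR10.1, searched on both strands, the core was present in 21 of the 25 LEA genes (84%), in 18 of the 20 called ones (90%) and in 35.3% of the 14221 tested genes with such a window. The palindrome CACGTG counts as a match on each strand, and the windows may run into neighbouring genes. The stretches below, printed 5′ to 3′ on the gene's strand with the core or its reverse complement CACGT in capitals, come from 4 called genes.
EM1 (chr3:19214584-19214632, plus strand): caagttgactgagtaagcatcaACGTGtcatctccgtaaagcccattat
EM1 (chr3:19214637-19214685, plus strand): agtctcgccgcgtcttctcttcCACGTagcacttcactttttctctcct
EM6 (chr2:16780380-16780464, minus strand): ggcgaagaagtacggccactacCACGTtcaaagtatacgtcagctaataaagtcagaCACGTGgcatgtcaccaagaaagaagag
LEA76 (chr3:5311027-5311094, minus strand): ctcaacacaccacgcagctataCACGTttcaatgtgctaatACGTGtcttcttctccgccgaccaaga
LEA4-5 (chr5:2090530-2090579, minus strand): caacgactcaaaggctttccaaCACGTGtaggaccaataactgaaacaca
LEA4-5 (chr5:2090457-2090517, minus strand): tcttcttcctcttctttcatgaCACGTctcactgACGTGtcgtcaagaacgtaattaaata
A match is a description of these letters and shows no binding.

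Storage protein and oil body genes, the reserves packed in the seed, were higher with NaCl in 10 of 20 genes tested (50%) and lower in 0, beside 5.97% and 2.5% of all genes tested, with a median log2 fold change of 1.01. SESA5, a 2S albumin, had 1278 and 2105 FPKM with NaCl and 376 and 755 FPKM in control, a fold change of 1.62 ± 0.19 (adjusted p = 0.00827). SESA4, another albumin, had 193 and 165 FPKM with NaCl and 62.9 and 66.0 FPKM in control, a fold change of 1.46 ± 0.16 (adjusted p = 0.00713). OLEO4, an oleosin that coats oil bodies, had 303 and 703 FPKM with NaCl and 128 and 269 FPKM in control, a fold change of 1.31 ± 0.19 (adjusted p = 0.0143). In SESA5 and OLEO4 the second replicate was the higher one in both media. AT2G18540, a cupin, rose by 1.44 log2 units (SE 0.17, adjusted p = 0.00827), and OLEO2, OLEO3, CRU3, CLO2, HSD5 and AT2G28490 were also called. The most abundant globulin gene, CRA1, had 2627 and 8733 FPKM with NaCl and 2534 and 5355 FPKM in control, which overlapped. CRA1 was not called (log2 fold change 0.38, adjusted p = 0.432). Reads shared by near-identical SESA or cruciferin genes make their single values uncertain. Without control replicate 1 or NaCl replicate 1 the count of called storage genes was 0, and without control replicate 2 and NaCl replicate 2 it was 4 and 7. With the Col-0 libraries alone it was 16, and without a filter on low values it was 4.

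ABA itself is set by synthesis and breakdown, and here 2 of 9 genes tested rose and 0 fell (median 0.58). CYP707A2, the hydroxylase that inactivates ABA in imbibed seeds, had 13.8 and 12.4 FPKM with NaCl and 2.64 and 2.44 FPKM in control. Its libraries lay close together within each medium, and CYP707A2 rose by 1.99 log2 units (SE 0.18, adjusted p = 0.00562; 0.0648 unpaired). ABA1, the zeaxanthin epoxidase at the start of ABA synthesis, had 64.0 and 64.8 FPKM with NaCl and 39.3 and 40.0 FPKM in control, a fold change of 0.69 ± 0.13 (adjusted p = 0.0286). NCED9, which cleaves the carotenoid precursor, had 20.9 and 16.5 FPKM with NaCl and 11.2 and 8.69 FPKM in control and was not called (adjusted p = 0.175). CYP707A3 was not called either, at 3.78 and 1.17 FPKM with NaCl and 1.05 and 0.33 FPKM in control.

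In the ABA signalling core, 4 of 23 genes tested were called, all of them clade A PP2C phosphatases, which restrain the pathway, and 0 were called lower (median 0.11). HAI3 had 54.3 and 11.3 FPKM with NaCl and 7.83 and 3.15 FPKM in control, a fold change of 2.11 ± 0.31 (adjusted p = 0.0149). ABI1 had 40.5 and 10.9 FPKM with NaCl and 11.2 and 4.04 FPKM in control, a fold change of 1.5 ± 0.32 (adjusted p = 0.036). NaCl replicate 2 of ABI1 lay under control replicate 1, so its groups overlapped and the call rests on the pairing. ABI2 had 8.46 and 9.74 FPKM with NaCl and 4.1 and 3.28 FPKM in control, a fold change of 1.11 ± 0.21 (adjusted p = 0.0282), and HAI2 was called with a log2 fold change of 1.05. OST1, an SnRK2 kinase, had 23.5 and 139.9 FPKM with NaCl and 155 and 198 FPKM in control. The 2 NaCl values of OST1 differ widely, and it was not called (adjusted p = 0.13). The count of higher genes in the list was 0 without control replicate 1, control replicate 2 or NaCl replicate 1, and without NaCl replicate 2 it was 4, with 2 lower. Without a filter on low values it was 0.

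Among ABA and osmotic stress responsive genes, 4 of 12 tested rose and 0 fell (median 0.70). RD26, a NAC factor, had 6.1 and 3.29 FPKM with NaCl and 1.26 and 1.13 FPKM in control, a fold change of 1.33 ± 0.27 (adjusted p = 0.0336). RAP2.6, an ERF factor, was near 0 in control (1.79 and 1.68 FPKM with NaCl, 0.06 and 0.12 FPKM in control), a fold change of 1.33 ± 0.21 (adjusted p = 0.0187). GOLS2, galactinol synthase 2, had 11.6 and 20.8 FPKM with NaCl and 4.28 and 9.11 FPKM in control, a fold change of 1.18 ± 0.25 (adjusted p = 0.036). RD29A was the other gene called, while its neighbour RD29B, with 66.1 and 44.9 FPKM with NaCl and 37.9 and 52.6 FPKM in control, overlapped between media. RAP2.6 and RD29A passed the filter only through NaCl, where they are high. Higher genes of this list numbered 0 without control replicate 1, control replicate 2 or NaCl replicate 1, and without NaCl replicate 2 there were 2, with 1 lower. A single higher gene was called without a filter on low values.

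Of the regulators of seed maturation, 2 of 16 tested rose and 0 fell (median -0.02). MFT, a phosphatidylethanolamine-binding protein that acts in ABA control of germination, had 87.0 and 46.7 FPKM with NaCl and 36.2 and 21.3 FPKM in control, a fold change of 1.17 ± 0.16 (adjusted p = 0.0113). AGL67, a MADS-box factor, had 77.0 and 66.6 FPKM with NaCl and 44.1 and 40.4 FPKM in control, a fold change of 0.75 (adjusted p = 0.0356). ABI3 and ABI4 were below control in both NaCl libraries without being called: ABI4 had 63.5 and 83.8 FPKM with NaCl and 140.3 and 158 FPKM in control (adjusted p = 0.103), and ABI3 had 205 and 171 FPKM with NaCl and 219.8 and 211 FPKM in control (adjusted p = 0.331). ABI5, the bZIP factor, had 135 and 46.9 FPKM with NaCl and 67.9 and 33.3 FPKM in control, and its groups overlapped (adjusted p = 0.139). DOG1, the dormancy gene, was low, at 2.65 and 1.28 FPKM with NaCl and 0.62 and 0.41 FPKM in control (adjusted p = 0.0524). EEL, at 13.8 and 13.3 FPKM with NaCl and 7.53 and 6.08 FPKM in control, was not called.

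The study's title concerns the SOS pathway of sodium export. SOS1, the sodium/proton exchanger of the plasma membrane, had 9.98 and 7.91 FPKM with NaCl and 7.29 and 7.63 FPKM in control. SOS2, the kinase that activates it, had 2.79 and 1.97 FPKM with NaCl and 2.35 and 2.11 FPKM in control, and SOS3, its calcium sensor, had 10.1 and 6.01 FPKM with NaCl and 4.34 and 4.55 FPKM in control. SOS1 and SOS3 were higher in both NaCl libraries than in both control libraries, SOS2 overlapped, and none of the 3 was called in either fit (adjusted p = 0.419 for SOS1, 0.869 for SOS2 and 0.0788 for SOS3, paired). Of 18 sodium and potassium transport genes tested, 0 rose and 1 fell (median 0.14). It was AHA2, a plasma membrane proton pump, with 28.2 and 12.3 FPKM with NaCl and 51.1 and 20.0 FPKM in control, a fold change of -0.75 ± 0.14 (adjusted p = 0.0278), and its groups overlapped. CBL1 and AKT1 were not called, at 27.6 and 33.2 FPKM with NaCl and 18.4 and 26.2 FPKM in control for the potassium channel AKT1 and 11.3 and 8.41 FPKM with NaCl and 5.31 and 8.69 FPKM in control for CBL1. SERK1 had 2.4 and 1.06 FPKM with NaCl and 2.7 and 1.59 FPKM in control and was not called.

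Osmolyte genes were read as separate lists, proline and betaine first and then raffinose and trehalose. Of 9 proline and betaine genes tested, 2 rose and 0 fell (median 0.04): PRODH, the dehydrogenase that degrades proline, had 31.2 and 56.4 FPKM with NaCl and 11.9 and 21.4 FPKM in control, a fold change of 1.34 ± 0.21 (adjusted p = 0.0173), and PROT2, a proline transporter, had 7.8 and 4.54 FPKM with NaCl and 2.53 and 1.98 FPKM in control, a fold change of 1.11 ± 0.18 (adjusted p = 0.0203). The genes of proline synthesis were not called, P5CS1 with 2.47 and 1.08 FPKM with NaCl and 2.39 and 1.34 FPKM in control and P5CS2 with 100.3 and 105 FPKM with NaCl and 194 and 102 FPKM in control. PROT1 overlapped between media, at 14.4 and 2.73 FPKM with NaCl and 18.4 and 4.61 FPKM in control. Raffinose and trehalose genes gave 4 higher and 1 lower of 15 tested (median 0.38). TPS11, a trehalose phosphate synthase family member, had 109 and 78.4 FPKM with NaCl and 44.7 and 31.5 FPKM in control, a fold change of 1.28 ± 0.12 (adjusted p = 0.00562). TPS6, TPS8 and GOLS2 were the other higher genes and DIN10 the lower one, while SIP1, a raffinose synthase family member named for seed imbibition, had 47.7 and 36.2 FPKM with NaCl and 129 and 71.6 FPKM in control and was not called. Without control replicate 2 or NaCl replicate 1 the count of higher raffinose and trehalose genes was 1, and without NaCl replicate 2 or without a filter on low values it was 2.

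Aquaporin genes, which encode water channels, gave 2 higher and 1 lower of 11 tested (median 0.37). PIP2;7 fell, with 84.5 and 97.8 FPKM with NaCl and 156 and 200.3 FPKM in control, a fold change of -0.95 ± 0.13 (adjusted p = 0.0133). PIP2A, of the same plasma membrane family, had 7.64 and 5.48 FPKM with NaCl and 4.35 and 2.74 FPKM in control, a fold change of 0.74 ± 0.17 (adjusted p = 0.0448), and PIP1B was called with a log2 fold change of 0.69. TIP3;2, a seed tonoplast channel, overlapped between media, at 387 and 1233 FPKM with NaCl and 185 and 788 FPKM in control, and PIP2;5 was not called.

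Genes known to respond to sugar starvation and the kinase SnRK1 gave 10 higher and 2 lower of 26 tested (median 0.62), and ASN1 and AT3G15450 were also called without pairing. Besides BT2, SEN1 had 22.6 and 34.0 FPKM with NaCl and 7.15 and 11.7 FPKM in control, a fold change of 1.5 (adjusted p = 0.00562). DIN2, a beta-glucosidase induced in the dark, had 11.9 and 10.9 FPKM with NaCl and 3.48 and 3.05 FPKM in control, a fold change of 1.54 (adjusted p = 0.00739). BCAT2, which acts in branched-chain amino acid breakdown, had 8.28 and 18.1 FPKM with NaCl and 2.51 and 5.47 FPKM in control, a fold change of 1.48 (adjusted p = 0.0131). In all 3 genes the groups did not overlap. The same held for 16 of the 26 list genes on the higher side and 3 on the lower side. Over all genes tested, 20.6% and 17.2% did not overlap on these sides. IVD and DIN4, of the same breakdown route, TPS8 and AT1G80440 completed the higher genes. DIN10 and EXO fell, EXO with 2.72 and 0.89 FPKM with NaCl and 18.6 and 3.92 FPKM in control; EXO passed the filter only through the control group. The kinase subunit gene KIN10 had a log2 fold change of -0.10 and was not called. Without control replicate 1 the count of higher genes was 0, and without control replicate 2, NaCl replicate 1 and NaCl replicate 2 it was 4, 4 and 7.

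In amino acid and nitrogen metabolism 2 of 18 tested rose (11.1%) and 1 fell (5.56%), beside 5.97% and 2.5% of all genes tested (median 0.30). ASN3 moved opposite to ASN1, with 4.65 and 3.65 FPKM with NaCl and 10.9 and 7.05 FPKM in control, a fold change of -0.94 ± 0.19 (adjusted p = 0.0336). AMT1;1, an ammonium transporter, had 3.17 and 2.02 FPKM with NaCl and 1.44 and 0.77 FPKM in control, a fold change of 0.77 ± 0.17 (adjusted p = 0.0425), and HGO was called with a log2 fold change of 0.66. AMT1;1 passed the filter only through NaCl. Without control replicate 2 or NaCl replicate 1 none of the 3 calls held. NRT2.7, the nitrate transporter of seeds, had 254 and 342 FPKM with NaCl and 130.3 and 201 FPKM in control and was not called (adjusted p = 0.0772), nor was NRT1.7.

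Phosphate starvation genes gave 0 higher and 5 lower of 19 tested (median -0.15). Besides PAP17 and G3PP1 they were SPX1, SQD1 and PAP10. SPX1, a sensor protein that restrains PHR1, the master regulator of the response, had 12.5 and 24.8 FPKM with NaCl and 56.5 and 90.5 FPKM in control, a fold change of -1.96 ± 0.39 (adjusted p = 0.0322). SQD1, of sulfolipid synthesis, had 16.8 and 27.9 FPKM with NaCl and 40.8 and 46.2 FPKM in control, a fold change of -0.97 ± 0.16 (adjusted p = 0.0194). PAP10, another acid phosphatase, had 57.9 and 50.3 FPKM with NaCl and 98.2 and 105 FPKM in control, a fold change of -0.90 (adjusted p = 0.0328). PHR1 itself had 54.1 and 53.6 FPKM with NaCl and 48.5 and 55.2 FPKM in control and was not called (adjusted p = 0.847). The element bound by PHR1, GNATATNC, was found on either strand in the 500 bases upstream in 6 of the 19 list genes (31.6%), against 10.2% of all tested genes, but in 0 of the 5 called ones. Without control replicate 1 the count of lower genes was 0, and without control replicate 2, NaCl replicate 1 and NaCl replicate 2 it was 3, 2 and 4. Without a filter on low values it was 2. For iron and sulfur nutrition 1 of 22 genes tested rose and 0 fell (median 0.03), FER2, a ferritin of seeds, with 107 and 128 FPKM with NaCl and 62.7 and 62.5 FPKM in control (fold change 0.90 ± 0.15, adjusted p = 0.0211). FER1, FER3 and FER4 were not called.

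Cell wall loosening genes gave 0 higher and 5 lower of 15 tested, with the lowest median of the lists drawn, -0.91. EXPA2, an expansin of the germinating endosperm, had 215 and 72.5 FPKM with NaCl and 636 and 256 FPKM in control, a fold change of -1.68 ± 0.29 (adjusted p = 0.0211). EXPA1 had 261 and 21.3 FPKM with NaCl and 526 and 98.7 FPKM in control, a fold change of -1.58 ± 0.27 (adjusted p = 0.0211). Replicate 1 of EXPA1 was the higher library in both media and the groups overlapped, so this call rests on the pairing. XTH24 had 3.53 and 5.9 FPKM with NaCl and 21.9 and 19.5 FPKM in control, a fold change of -1.95 ± 0.22 (adjusted p = 0.00713). MAN7, a mannanase that weakens the endosperm, had 21.0 and 11.2 FPKM with NaCl and 39.7 and 35.0 FPKM in control, a fold change of -1.22 ± 0.22 (adjusted p = 0.0251). Of the 9 negative members, 4 were not called. The list of endosperm genes shares EXPA2 and MAN7, and of its 5 tested genes ABCG31, an ABA transporter, was higher, at 5.06 and 4.95 FPKM with NaCl and 0.58 and 0.66 FPKM in control (fold change 1.89 ± 0.17, adjusted p = 0.00562); CP1, a papain protease, was not called. ABCG31 passed the filter only through NaCl, where it is high. Without control replicate 1 the count of lower cell wall genes was 0, and without control replicate 2, NaCl replicate 1 and NaCl replicate 2 it was 2, 3 and 4. Without a filter on low values it was 2.

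Among auxin and cytokinin genes 0 of 15 rose and 3 fell (median -0.33). Besides GH3.5 they were the auxin carriers LAX2, with 1.06 and 0.21 FPKM with NaCl and 3.89 and 1.26 FPKM in control, and PIN2, with 2.19 and 0.96 FPKM with NaCl and 5.05 and 2.37 FPKM in control (adjusted p = 0.0356 for LAX2 and 0.0354 for PIN2). LAX2 and PIN2 passed the filter only through the control group, where they are high. Lower auxin and cytokinin genes numbered 0 without control replicate 1, control replicate 2 or NaCl replicate 1, and without NaCl replicate 2 there were 2. A single one was called without a filter on low values. ARF19 was not called. Among brassinosteroid and SERK genes 0 of 16 rose and 2 fell (median 0.08). BES1, a transcription factor of the pathway, had 4.86 and 6.59 FPKM with NaCl and 14.9 and 13.8 FPKM in control, a fold change of -1.2 ± 0.20 (adjusted p = 0.0191), and DWF4, an enzyme of brassinosteroid synthesis, had 2.91 and 1.35 FPKM with NaCl and 7.9 and 4.54 FPKM in control, a fold change of -1.21 ± 0.19 (adjusted p = 0.0168). BZR1, the relative of BES1, had 10.2 and 10.6 FPKM with NaCl and 19.5 and 21.9 FPKM in control and was not called (adjusted p = 0.0779). BKI1 was not called.

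Gibberellin, the hormone that promotes germination, was represented by 19 tested genes, of which 2 rose and 1 fell (median -0.17). GASA2 had 30.2 and 39.3 FPKM with NaCl and 8.7 and 12.3 FPKM in control, a fold change of 1.64 ± 0.14 (adjusted p = 0.00562), and GASA3 had 158 and 205 FPKM with NaCl and 67.3 and 118 FPKM in control, a fold change of 1.01 ± 0.18 (adjusted p = 0.0258). GASA14, of the same family of small peptides, fell, with 1.0 and 0.76 FPKM with NaCl and 5.1 and 2.25 FPKM in control (fold change -1.25 ± 0.28, adjusted p = 0.0409). GASA14 passed the filter only through the control group, where it is high. GA3OX1, the enzyme that makes active gibberellin, had 1.74 and 0.38 FPKM with NaCl and 4.4 and 1.73 FPKM in control, with overlap between replicate 1 with NaCl and replicate 2 in control, and was not called (adjusted p = 0.0821). GA3OX2 did not reach the level needed for testing.

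Genes of ethylene synthesis and jasmonate gave 3 higher and 0 lower of 19 (median 0.31). ACS4 and ACS2, synthases of the ethylene precursor, had 5.87 and 2.49 FPKM with NaCl and 0.30 and 0.75 FPKM in control for ACS4 and 5.05 and 5.17 FPKM with NaCl and 1.97 and 1.75 FPKM in control for ACS2 (fold changes 1.7 ± 0.34 and 1.1 ± 0.15). ACS4 passed the filter only through NaCl. HRE1 was also called, at 0.88. Without control replicate 2 or NaCl replicate 1 the count of higher genes was 0, without NaCl replicate 2 it was 2, with 3 lower, and without a filter on low values it was 1. ACO1, the oxidase that completes ethylene synthesis, ranged widely, with 3.27 and 6.01 FPKM with NaCl and 39.3 and 7.24 FPKM in control, and was not called.

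For oxidative stress 5 of 30 tested genes rose and 1 fell (median 0.33). CAT3, a catalase, had 255 and 459 FPKM with NaCl and 84.7 and 129.7 FPKM in control, a fold change of 1.7 ± 0.13 (adjusted p = 0.00527). PER1, the peroxiredoxin of seeds, had 491 and 725 FPKM with NaCl and 178 and 430.0 FPKM in control, a fold change of 1.1 ± 0.24 (adjusted p = 0.0409). FSD1, an iron superoxide dismutase, fell, with 4.76 and 5.8 FPKM with NaCl and 21.0 and 20.3 FPKM in control (fold change -1.79 ± 0.19, adjusted p = 0.00713). NDB2, DHAR1 and GPX1 were the other higher genes, and AOX1A, the alternative oxidase, overlapped between media. Without control replicate 2, NaCl replicate 1 and NaCl replicate 2 the count of higher oxidative stress genes was 2, 1 and 3, and without a filter on low values it was 1. Glutathione transferases and detoxification enzymes gave 6 higher and 0 lower of 27 (median 0.56). Besides GLYI7, GSTU5 had 205 and 201 FPKM with NaCl and 59.4 and 47.7 FPKM in control, a fold change of 1.91 ± 0.23 (adjusted p = 0.00827). CYP81D8, a cytochrome P450, had 44.7 and 36.2 FPKM with NaCl and 13.1 and 11.7 FPKM in control, a fold change of 1.62 ± 0.14 (adjusted p = 0.00562). GSTU9, GSTU4 and GSTU1 were the other 3 called; tau class genes are close in sequence, and their split of shared reads is uncertain. GSTU9 passed the filter only through NaCl. The count of higher glutathione and detoxification genes was 0 without control replicate 1, and without control replicate 2, NaCl replicate 1 and NaCl replicate 2 it was 2, 3 and 6. Without a filter on low values it was 3.

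Heat shock and chaperone genes gave 0 called of 25 (median 0.39), HSFA2 among them, with 36.3 and 95.0 FPKM with NaCl and 16.1 and 31.4 FPKM in control (adjusted p = 0.312). The small heat shock gene HSP17.4 had 396 and 1999.6 FPKM with NaCl and 253 and 737 FPKM in control, with replicate 2 well above replicate 1 in both media. The list median was 1.35 without NaCl replicate 1 and -0.24 without NaCl replicate 2. Genes of the endoplasmic reticulum stress list gave 0 higher and 5 lower of 19 (median -0.25). CNX1, the chaperone calnexin, had 81.1 and 78.4 FPKM with NaCl and 142 and 135 FPKM in control, a fold change of -0.79 ± 0.14 (adjusted p = 0.0233). CRT1, calreticulin, had 57.4 and 28.3 FPKM with NaCl and 109 and 43.6 FPKM in control, a fold change of -0.76 ± 0.15 (adjusted p = 0.0288), with overlap. SHD, SDF2 and BIP2 were the other members lower, and BIP1 was not called. Without NaCl replicate 2 the count of lower genes was 1, and without each other Col-0 library it was 0. Without a filter on low values it was 1.

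Ribosomal protein genes were below 0 in 30 of 31 tested, while 45.7% of all tested genes were, and 3 were called lower and 0 higher (median -0.40). RPL12C had 185 and 141 FPKM with NaCl and 345 and 329.5 FPKM in control, a fold change of -1.05 ± 0.19 (adjusted p = 0.0246), and RPL10B had 37.5 and 17.2 FPKM with NaCl and 57.0 and 47.1 FPKM in control, a fold change of -1.0 ± 0.20 (adjusted p = 0.0304). RPL16A was the other one called. Without any 1 of the 4 Col-0 libraries, or without a filter on low values, the count of called ribosomal protein genes was 0. As shares of the total, ribosomal proteins of the list held 2.82% and 2.13% with NaCl and 3.52% and 2.97% in control.

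In the remaining lists few genes were called. Cell cycle and DNA replication genes gave 0 of 22 (median 0.02) and DNA damage genes gave 1 of 22 higher (median -0.09), PARP3, a poly(ADP-ribose) polymerase of seeds, with 206 and 184 FPKM with NaCl and 98.6 and 63.0 FPKM in control (fold change 1.29 ± 0.17, adjusted p = 0.0109). Light and clock genes gave 3 higher of 25 (median 0.50). SOM, a zinc finger repressor of germination, was one of them, with 734 and 372 FPKM with NaCl and 385 and 234 FPKM in control (fold change 0.80 ± 0.15, adjusted p = 0.0269), and its groups overlapped, while RVE8 and SPA1 were the others. The count of higher light and clock genes was 0 without control replicate 1 or NaCl replicate 1, 1 without control replicate 2 and 2 without NaCl replicate 2. It was 6 with the Col-0 libraries alone and 0 without a filter on low values. ELF4 had 37.0 and 28.6 FPKM with NaCl and 7.09 and 12.9 FPKM in control and missed the threshold (adjusted p = 0.0551). Oil breakdown gave 2 higher of 24 (median 0.17), ACX1 and AIM1, enzymes of fatty acid oxidation in peroxisomes, while photosynthesis (16 genes), seed coat (5), pollen and flower (4) and root hair (1) gave 0 called. Flavonoid genes gave 1 lower of 8, OMT1, with 0.80 and 0.44 FPKM with NaCl and 2.87 and 1.7 FPKM in control, and it passed the filter only through the control group, where it is high.

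**Figure D4:**
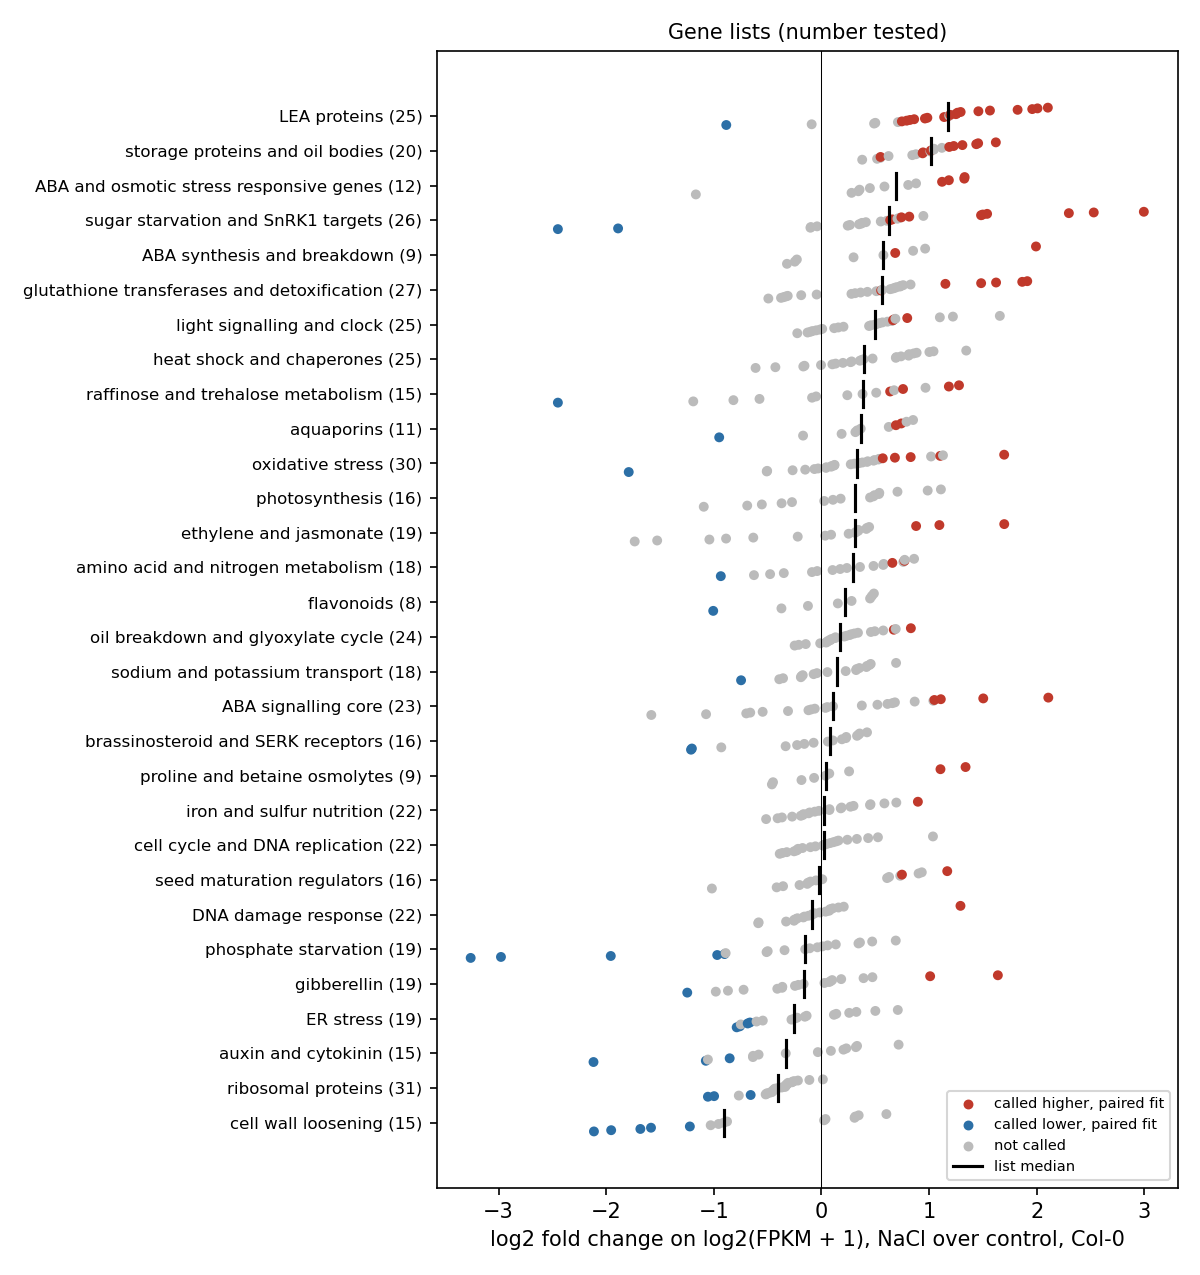
Log2 fold change of every tested gene in each list with at least 8 tested genes, with the number tested in brackets, the genes called higher with NaCl in red, the genes called lower in blue and the list median as a black bar. LEA proteins lie at the top with a median of 1.18 and cell wall loosening at the bottom with -0.91.

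The same contrast in serk1-1 seeds shares no library with Col-0 and shows how far the Col-0 changes recur. Of the 851 genes called higher in Col-0, 817 had a log2 fold change above 0 in serk1-1, and of the 356 called lower 355 were below 0, where 41.6% of all tested genes were above 0 in serk1-1. The median of these genes was 0.44 for the higher and -0.64 for the lower set in serk1-1, and 1.03 and -0.89 in Col-0, the values that chose them. The serk1-1 effect was smaller in size for 830 of 851 and 314 of 356 genes. These counts are a description, since the Col-0 values chose the genes. The serk1-1 libraries also entered the shared spread of the fit that called them. Genes whose serk1-1 pairs moved alike were therefore favoured. The difference itself, serk1-1 minus Col-0, was called for 0 genes without pairing (161 at an unadjusted p under 0.05) and 0 with it (757 at an unadjusted p under 0.05), so a difference between the genotypes was not shown. PAP17 had a log2 fold change of -1.96 in serk1-1 beside -3.26 in Col-0, ASN1 1.36 beside 2.53, NRT1.8 2.34 beside 2.33 and CYP707A2 0.64 beside 1.99. The LEA list had a median of 0.68 in serk1-1 beside 1.18 in Col-0, and storage proteins had 0.66 beside 1.01. Sugar starvation had 0.20 beside 0.62 and cell wall loosening -0.079 beside -0.91. Of the 15 cell wall loosening genes, 11 were below 0 and 4 above 0 in serk1-1, beside 9 and 6 in Col-0.

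**Figure D5:**
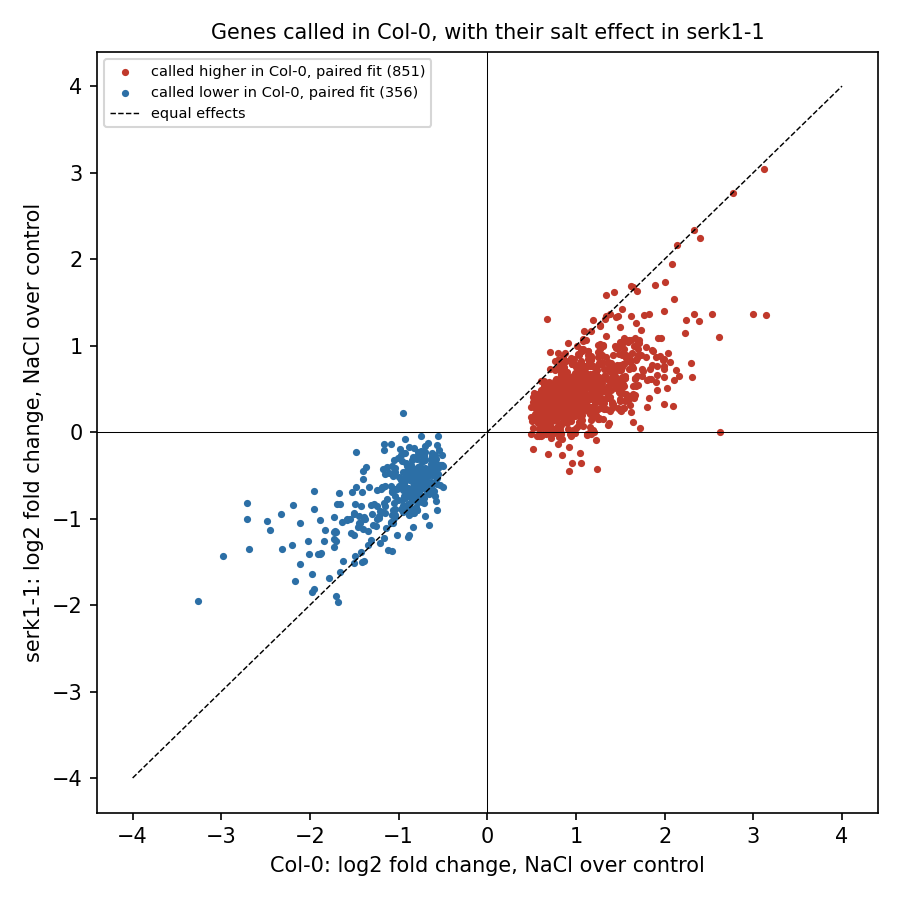
Log2 fold change, NaCl over control, in Col-0 (x axis) and in serk1-1 (y axis) for the 851 genes called higher (red) and the 356 called lower (blue) in Col-0, with the dashed line marking equal effects. Most points keep their side of 0 in serk1-1 (817 of 851 and 355 of 356).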

How the data were processed

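The deposited values are FPKM per gene for 8 libraries, made by the authors with TopHat2 and Cufflinks 2.1.1 against TAIR10 after FastQC 0.10.1, per the submitters' processing notes. No TopHat2 version, strand setting or treatment of multi-mapping reads is stated there. Depth is unknown. FPKM are relative to a library's total, so an abundant class lowers the rest.

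The Col-0 salt contrast was fitted with limma 3.58.1 (R 4.3.3) on log2(FPKM + 1), as 4 group means over 8 libraries, with a mean-variance trend, empirical Bayes moderation and Benjamini-Hochberg adjustment over 14255 genes, once without and once with replicate number as a block. The pseudocount of 1 understates the change of low genes. With 2 libraries against 2, no test by exchanging labels can pass the threshold. The scripts were tested on simulated data. Members, gene lists and tests were chosen with earlier results of these data known. Named genes were all genes called without pairing, up to 15 per direction of the largest paired calls (mean of at least 5 FPKM in a Col-0 group, at least 0.1 FPKM in every Col-0 library, no overlap of groups), up to 4 per list by size of fold change, and a fixed set; list members named beyond these were chosen after their values were seen. Names, gene overlaps and upstream sequences come from RefSeq's TAIR10.1 annotation, which named 32815 of 33279 genes. Figures used Python 3.11.15 with matplotlib 3.10.9. Alternatives covered the pseudocount, filter, scaling, moderation, Col-0 libraries alone, the block and each library left out.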

Additional observations from a re-analysis of the deposited data

Results flagged for a closer look

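Among the genes named, 4 had both replicate pairs of Col-0 moving one way with NaCl and both pairs of serk1-1 moving the other way. None of the 4 was called in Col-0, and they are listed only for the opposite directions. How often this happens over all genes tested was not counted. The test of the difference itself, serk1-1 minus Col-0, did not call them (adjusted p = 0.99994 for each without pairing, 0.829 to 0.96 with it). SMR1, a cell cycle inhibitor, had a log2 fold change of -0.29 in serk1-1 and 1.04 in Col-0. Its serk1-1 values were near the floor, at 0.34 and 0.17 FPKM with NaCl and 0.57 and 0.5 FPKM in control. FER1, a ferritin, had -0.27 in serk1-1 and 0.59 in Col-0. PCNA2, a replication clamp, had -0.18 in serk1-1 and 0.53 in Col-0. BRCA1, of DNA repair, had 0.048 in serk1-1 and -0.59 in Col-0. The 2 serk1-1 pairs of BRCA1 hardly moved, at 0.075 and 0.021.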

How the results depend on the processing

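Salt calls in Col-0 numbered 7 without pairing. They were 2 at a pseudocount of 0.1, 0 at a mean of at least 5 FPKM and 0 with the Col-0 libraries alone, but 24 under median-of-ratios scaling and 103 under quantile normalization. With 1 library left out they ranged from 0 to 37. The replicate block gave 1207 calls. These 1207 became 377 without a filter on low values and 7 with no replicate block, were 1569 under quantile normalization and 1761 with the Col-0 libraries alone, and ranged from 0 to 986 with 1 library left out. The difference between the genotypes had 0 calls, and 0 to 2 with 1 library left out. Which libraries the numbers pair is not given by the labels; deviations of same-numbered libraries correlated across genes with r from 0.43 to 0.74 between groups, over only 2 numbers. The causes were not tested. Of 1746 values of the 162 named genes under settings other than a library left out, 1545 kept their direction and side of the threshold, 161 lost and 38 gained a call, and 2 reversed, both uncalled genes under quantile normalization (MYB97 at -0.057, SOS2 at -0.060). With 1 library left out, 12 values reversed, in 11 genes that were not called. Their log2 fold changes ranged from -0.029 to 2.11 for HSP17.4, -0.13 to 2.13 for HSP17.8, -0.11 to 0.98 for TSO2, -0.074 to 0.49 for MUM4, -0.42 to 0.56 for MYB97, -0.15 to 0.27 for PHR1, -0.11 to 0.22 for SOS2, -0.18 to 0.046 for P5CS1, -0.48 to 0.029 for SERK1, -0.95 to 0.031 for PROT1 and -2.4 to 0.069 for ADH1. Depth is unknown, so the precision of low values could not be given.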

Other observations

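Among 71 groups of at least 15 tested genes that share a RefSeq product name, the SAUR-like auxin-responsive family stood out after its values were seen, with 6 of 15 genes called higher with NaCl (40%) and 3 called lower (20%), beside 5.97% and 2.5% of all genes. The 3 lower ones, AT4G34760, AT4G34790 and AT4G34800, have neighbouring locus numbers. AT4G34750, a tested member next to them in number, was not called (log2 fold change -0.044, adjusted p = 0.907). AT4G34790 had 1.71 and 2.50 FPKM with NaCl and 14.5 and 7.27 FPKM in control, and AT4G34760 had 1.15 and 0.59 FPKM with NaCl and 6.85 and 2.67 FPKM in control. On the higher side, AT2G45210 had 11.4 and 3.19 FPKM with NaCl and 2.45 and 0.53 FPKM in control (log2 fold change 1.65). AT3G12955 had 43.5 and 51.0 FPKM with NaCl and 19.6 and 24.1 FPKM in control (log2 fold change 1.08). Of the called members, AT2G45210 and AT3G12830 passed the filter only through NaCl and AT4G34760 only through the control group. The filter thus fixed the direction of these members. In the same listing, the UDP-glycosyltransferase superfamily had 11 of 35 genes called higher (31.4%) and 2 lower (5.71%), with a median log2 fold change of 0.39. Members of these families are close in sequence, and reads shared between them make single values uncertain.

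ADH1 and HRE2, picked after their values were seen, differed between the 2 NaCl libraries. ADH1, alcohol dehydrogenase, had 527 and 2467 FPKM with NaCl and 2588 and 2538 FPKM in control. HRE2, an ERF factor of the hypoxia response, had 19.2 and 77.0 FPKM with NaCl and 111 and 115.5 FPKM in control. Neither gene was called, and NaCl replicate 1 was the low library in both. HRE1, a related factor that was called at 0.88, had 7.62 and 5.32 FPKM with NaCl and 3.92 and 2.27 FPKM in control.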
